A study of Mus musculus with 4 samples.

Results

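The 7 cyclin-dependent kinase inhibitor genes of the mouse were followed in bone marrow cultures grown during a space shuttle flight and in parallel cultures kept on the ground. They were Cdkn1a, Cdkn1b, Cdkn1c, Cdkn2a, Cdkn2b, Cdkn2c and Cdkn2d. Every probe set on the array whose only gene symbol in the platform annotation is one of these names was taken, which gave 9 probe sets for 7 of the 18193 genes that have such a probe set. The study asked how macrophages differentiate from marrow in space. Marrow of 21 adult C57BL/6 mice, more than 8 weeks old, was pooled, and the cells were grown at 37 °C in sealed glass barrels with 1.5 µg/ml of M-CSF, macrophage colony-stimulating factor, on which macrophage precursors depend for growth. Fresh medium with M-CSF was added on culture day 6 and all cells were lysed on culture day 15, which was day 14 of the flight. The groups were space flight (2 arrays) and ground control (2 arrays), and each array held RNA combined from 2 barrels.

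Several features limit these cultures as a model. All cultures came from 1 pool of marrow, so the replicates carry the spread between cultures and arrays and not between animals. Of 4 RNA pools made per group, the 2 best by RNA quality were used, and each had an RNA integrity number of 3, so the RNA was degraded. The RNA amounts given were 21.2 and 25 ng for space flight and 12.5 and 24.1 ng for ground control. The labels do not match these amounts to single arrays. Because whole cultures were lysed, fewer cells of a type and less RNA per cell cannot be told apart.

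Cyclin-dependent kinase inhibitors are small proteins that hold back the kinases that drive the cell cycle. The Cip/Kip family (Cdkn1a, Cdkn1b and Cdkn1c) binds complexes of cyclins with their kinases, above all those of Cdk2. The Ink4 family (Cdkn2a, Cdkn2b, Cdkn2c and Cdkn2d) binds Cdk4 and Cdk6 and keeps them from pairing with D-type cyclins. Either way the retinoblastoma protein Rb1 stays in the form that holds back E2f transcription factors, and the cell stays out of S phase. In marrow progenitors M-CSF drives both division and differentiation, and the cells leave the cycle as they mature into macrophages.

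The promoters of Cdkn1a and Cdkn1b are shown because these 2 genes had the largest differences with groups that did not overlap. Sequences are from RefSeq (GRCm38.p6), the 250 bases before each annotated start, 5′ to 3′ on the gene's strand, which is the plus strand for both genes. Capitals mark matches, on either strand, to a pair of p53 cores (CATG, any 6 bases, CATG) or to the GC box (GGGCGG). The first Cdkn1a window is chr17:29090729-29090978, the second is chr17:29093519-29093768, and that of Cdkn1b is chr6:134920151-134920400.
Cdkn1a first start: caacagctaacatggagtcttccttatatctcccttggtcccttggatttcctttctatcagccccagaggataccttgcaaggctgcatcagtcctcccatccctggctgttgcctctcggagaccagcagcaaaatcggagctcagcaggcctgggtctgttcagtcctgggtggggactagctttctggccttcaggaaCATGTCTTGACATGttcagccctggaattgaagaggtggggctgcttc
Cdkn1a second start: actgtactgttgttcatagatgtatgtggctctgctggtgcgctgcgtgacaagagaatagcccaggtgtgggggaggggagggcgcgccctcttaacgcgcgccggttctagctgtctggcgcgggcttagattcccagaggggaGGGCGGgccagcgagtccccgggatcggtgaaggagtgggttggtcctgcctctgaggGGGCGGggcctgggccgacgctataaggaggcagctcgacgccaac
Cdkn1b: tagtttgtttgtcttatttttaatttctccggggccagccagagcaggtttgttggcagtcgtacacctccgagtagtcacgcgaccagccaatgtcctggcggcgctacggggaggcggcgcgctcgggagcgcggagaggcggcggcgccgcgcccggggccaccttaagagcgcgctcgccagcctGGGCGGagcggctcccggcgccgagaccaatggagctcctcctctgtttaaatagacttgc

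Cdkn1a is a textbook target of the tumour suppressor p53. The pair of p53 cores lay 35 to 48 bases before its first start and 2825 bases before its second start. Of 32851 RefSeq promoter windows of this length, 0.49% held the pair, and among 9 windows of 6 member genes it was found in 1. The GC box, which transcription factors of the Sp family bind, was in 32.7% of all windows and in 5 of the 9, with 2 matches before the second Cdkn1a start and 1 in the Cdkn1b window. The window of Cdkn2b held neither of these but had a cyclic AMP response element (TGACGTCA), found in 1.55% of all windows. An E-box (CACGTG), which Myc and its partners bind, was in 6.02% of all windows and in 0 of the 9. The motifs do not overlap each other in these windows, and they were chosen with the sequences in view. A match describes the letters and shows no binding.

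In the flown cultures, 4 of the 9 inhibitor probe sets had both values above both ground control values: the 2 of Cdkn1a, 1 of the 2 of Cdkn1b and that of Cdkn2c. Cdkn1c had both values below. The largest of these differences was a log2 change of 1.37 ± 0.23 (SE, with 2 arrays in each group), a 2.59-fold higher level of Cdkn1a in space flight. No inhibitor probe set passed the test (limma adjusted p from 0.0925 to 0.993 over the 8 that were tested). At that threshold 0.0488% of 22519 measured probe sets were called, 10 higher and 1 lower in space flight. Both space flight values lay above both ground control values for 20.7% of measured probe sets and below them for 22.5%. The inhibitor probe sets without overlap were all among the 8 that were measured and tested. At an unadjusted p under 0.05, 3 inhibitor probe sets were higher and 1 was lower, where 5.43% of measured probe sets were higher and 6.58% were lower. The median over all 9 inhibitor probe sets was 0.70, beside 0.0048 over all probe sets on the array.

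Values below are quantile normalized log2(intensity + 16) and a difference is the space flight mean less the ground control mean. A probe set is called measured where its mean over the 4 arrays reached 6.40, the median over all probe sets, here called the dim limit. Of the 9, 8 were measured, and 1 of these, the dimmer probe set of Cdkn1b, had a ground control mean below that limit and was measured through 1 space flight array. Levels of different probe sets cannot be set against each other, because each binds its transcript with its own strength.

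RNA quality varied between arrays. Control probe sets for the 3' and 5' ends of Gapdh, whose ratio rises as RNA is degraded, gave a ratio of 4.09 and 15.2 on space flight arrays 1 and 2 and 4.13 and 3.33 on the ground control arrays. The same ratio was 3.08 and 4.91 in flight and 2.30 and 2.84 on the ground for Actb, and 5.50 and 3.47 in flight and 4.96 and 7.84 on the ground for Tfrc, so the 3 controls did not order the arrays alike. The 2 space flight arrays differed more than the 2 ground control arrays, with an SD over measured probe sets of 0.82 and 0.51 for the log2 difference within each pair. The part of RNA quality in the results below was not tested. Of 12 listed macrophage markers 10 were measured, as were 11141 of the 18193 genes with a single-symbol probe set. A count of measured markers alone does not identify the cells. Of the 10, Fcgr1 averaged 6.07 in ground control, under the dim limit, and 7.09 in space flight. The 2 brightest were the lysozyme gene Lyz2 and the M-CSF receptor gene Csf1r. Lyz2 stood at 15.25 in space flight and 15.31 in ground control, and Csf1r at 14.89 and 15.26.

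**Figure D1:**
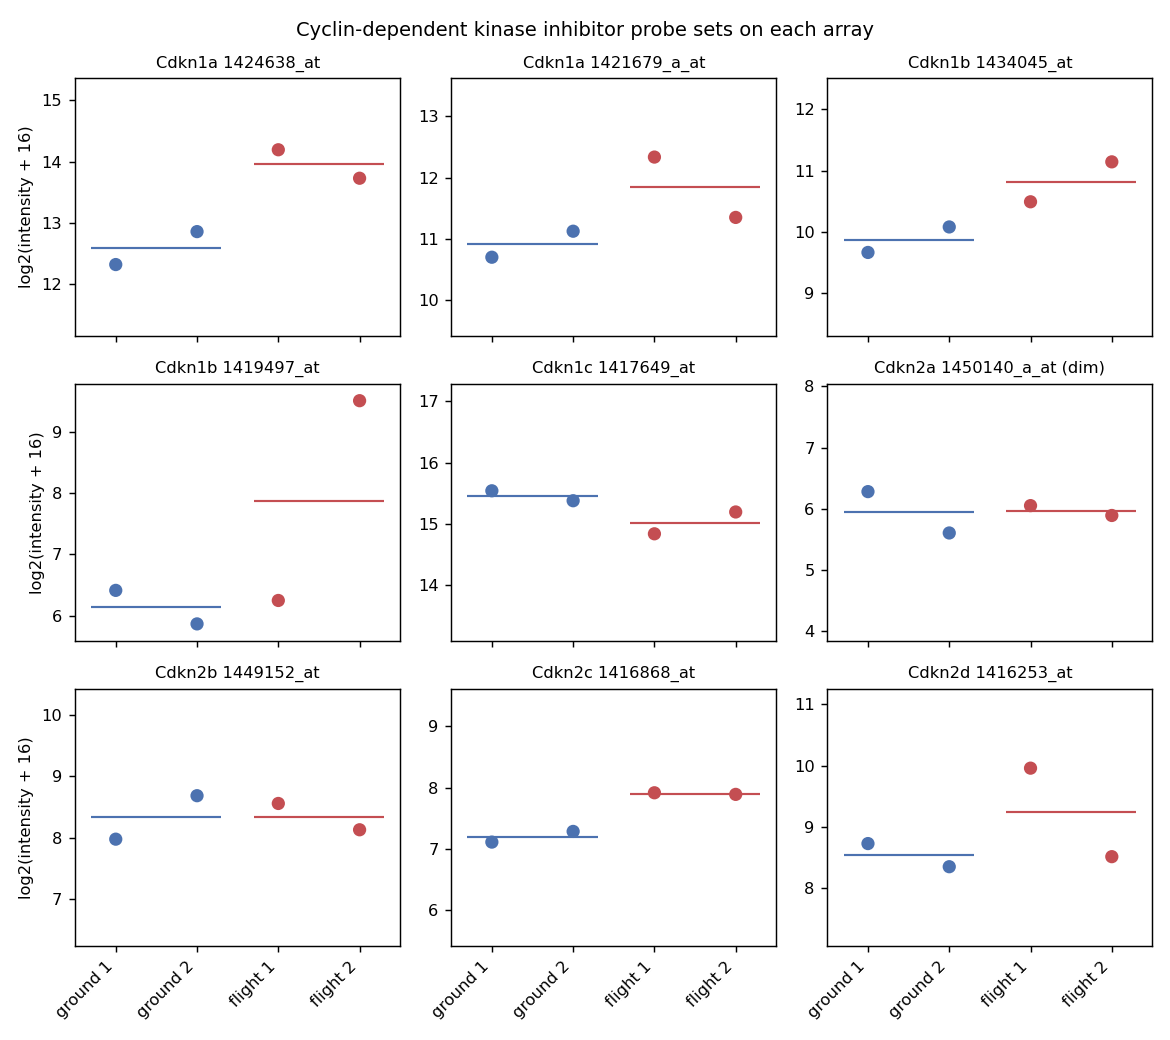
Quantile normalized log2(intensity + 16) of each inhibitor probe set on each array, with points for ground control (blue) and space flight (red) arrays and lines for group means; all panels span the same log2 range. Both space flight points lie above both ground control points for both Cdkn1a probe sets, for Cdkn1b 1434045_at and for Cdkn2c, and below them for Cdkn1c.

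Of the Cip/Kip genes, Cdkn1a encodes the inhibitor that p53 induces when DNA is damaged and that also halts cells as they differentiate. Its brighter probe set, 1424638_at, had deposited intensities of 17407.8 and 15506.1 on space flight arrays 1 and 2 and of 5053.9 and 7516.9 on ground control arrays 1 and 2. On the log2 scale these were 14.20 and 13.73 in flight and 12.32 and 12.86 on the ground. The groups were apart by more than either pair of replicates, with the lowest space flight value above the highest ground control value. The group means were 13.96 ± 0.33 and 12.59 ± 0.38 (SD, n = 2), and the difference of 1.37 ± 0.23 (SE) had a 95% interval from 0.85 to 1.90. It was at rank 49 of 22519 measured probe sets by p and missed the threshold (limma adjusted p = 0.0925). Over the alternatives that kept all 4 arrays the adjusted p and took no replicate number as a block ran from 0.0568, with 1 probe set per gene, to 0.478, with no intensity trend. With space flight array 1 or 2 left out the difference was 1.14 or 1.60 and passed the test (limma adjusted p = 0.000714 and 2.54e-06), the spread then coming from the ground control pair alone; so did 2632 and 1654 of the 22519 probe sets, against 11 with all arrays. With ground control array 1 or 2 left out it was 1.10 or 1.64 and did not pass (limma adjusted p = 0.501 and 0.0586), and 0 of the inhibitor probe sets passed in these 2 cases.

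The other Cdkn1a probe set, 1421679_a_at, is of the maker's class for alternative transcripts of a gene. Its log2 values were 12.34 and 11.35 in space flight and 10.70 and 11.13 in ground control. The groups did not overlap, but space flight array 2 lay closer to the ground control arrays than to space flight array 1. The difference was 0.93 ± 0.34 (SE, limma adjusted p = 0.324). It was 0.44 with space flight array 1 left out and 1.42 with array 2 left out. Both Cdkn1a probe sets thus pointed the same way, and for both the higher of the flown cultures was that on array 1.

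Cdkn1b encodes the inhibitor that keeps resting cells out of the cycle and that is destroyed, after tagging by the Skp2 ubiquitin ligase, when cells enter S phase. Its brighter probe set, 1434045_at, had deposited intensities of 1455.3 and 2158.5 in space flight and of 828.7 and 1060.2 in ground control. The log2 values were 10.49 and 11.15 in flight and 9.67 and 10.08 on the ground, without overlap. The difference of 0.94 ± 0.32 (SE), or 1.92-fold, missed the threshold (limma adjusted p = 0.291), and its 95% interval ran from 0.22 to 1.67. The difference was 1.27 with space flight array 1 left out and 0.62 with array 2 left out. With ground control array 1 or 2 left out it was 0.74 or 1.15. Here the higher of the flown cultures was that on array 2, the reverse of Cdkn1a.

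The dimmer probe set of Cdkn1b, 1419497_at, gave 6.25 and 9.51 in space flight and 6.41 and 5.86 in ground control. Only space flight array 2 stood high, and space flight array 1 lay between the ground control values. The difference of 1.74 ± 0.89 (SE, limma adjusted p = 0.481) therefore rested on 1 array. It was 0.11 with that array left out and 3.37 with space flight array 1 left out. Its value is the largest difference of the 9 probe sets and also the one with the largest standard error.

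Cdkn1c, an imprinted gene expressed mainly from the maternal copy, encodes the inhibitor that keeps blood stem cells quiescent. Its probe set, 1417649_at, was among the bright ones on the arrays, with deposited intensities of 26312.2 and 52505.9 in space flight and of 41502.4 and 39834.6 in ground control. As deposited, the groups overlapped, because space flight array 2 was the highest of the 4. After quantile normalization the values were 14.84 and 15.19 in flight and 15.54 and 15.38 on the ground, and the groups no longer overlapped. The difference was −0.44 ± 0.15 (SE; limma adjusted p = 0.274), a 1.36-fold lower level in space flight, and it was −0.13 with intensities as deposited, −0.29 with cyclic loess and −0.33 with each array shifted to 1 median. The direction held under those 3 scalings, while the size depended on the scaling. The difference was −0.26 with space flight array 1 left out and −0.62 with array 2 left out.

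Of the Ink4 genes, Cdkn2c moved least when 1 array was left out, between 0.62 and 0.79. It encodes an inhibitor of Cdk4 and Cdk6 that acts in lymphoid and other blood cells. Its probe set, 1416868_at, gave 7.92 and 7.89 in space flight and 7.11 and 7.29 in ground control. The replicates of each group lay close together and the groups did not overlap. The difference of 0.70 ± 0.41 (SE), or 1.63-fold, missed the threshold (limma adjusted p = 0.529). The standard error is larger than these 4 values alone would give because limma draws the spread of each probe set towards that of others of like brightness.

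Cdkn2d, which encodes an Ink4 protein whose level changes through the cell cycle, gave 9.96 and 8.51 in space flight and 8.73 and 8.35 in ground control on its probe set 1416253_at. Space flight array 1 alone stood high, and array 2 lay between the ground control values. The difference was 0.70 ± 0.47 (SE, limma adjusted p = 0.599). It became −0.025 with space flight array 1 left out and 1.42 with array 2 left out.

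Cdkn2b, an inhibitor that transforming growth factor beta induces in many cells, gave 8.56 and 8.13 in space flight and 7.98 and 8.68 in ground control on probe set 1449152_at. The groups overlapped completely, and the difference was 0.01 ± 0.40 (SE; limma adjusted p = 0.993). Its 95% interval ran from −0.88 to 0.91, so differences within that range, in either direction, were not excluded by these arrays. With each array shifted to 1 median the difference was −0.18; under that scaling the median of all measured probe sets moved as well, from −0.018 to −0.18.

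Cdkn2a encodes, from 2 alternative first exons, an Ink4 inhibitor and the Arf protein that stabilises p53. Its probe set, 1450140_a_at, had deposited intensities of 47.4 and 56.4 in space flight and of 53.9 and 31.3 in ground control. The log2 values of 6.05 and 5.89 lay between the ground control values of 6.28 and 5.61. The probe set was below the dim limit on all 4 arrays and was not tested. Its difference was 0.03.

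**Figure D2:**
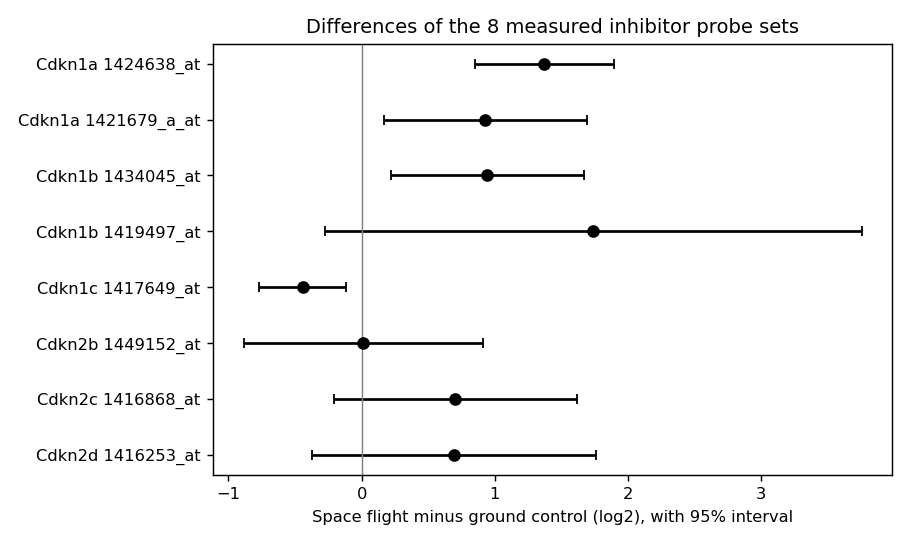
Space flight minus ground control on the log2 scale for the 8 measured inhibitor probe sets, with points for the difference and bars for the 95% interval from limma (n = 2 arrays per group). The intervals of both Cdkn1a probe sets and of Cdkn1b 1434045_at lie above 0, that of Cdkn1c lies below 0, and the other 4 span 0; none passed the test after adjustment.

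The inhibitors act on cyclins, their kinases and the pocket proteins, and 20 such genes were listed. Of these, 19 were measured and 0 passed the test (limma), with 1 higher and 1 lower at an unadjusted p under 0.05. The median difference was 0.16, beside 0.02 over the 11141 measured genes, each gene standing by its brightest probe set. Both space flight values lay above both ground control values for 7 genes and below for 4. Of all measured probe sets, 20.7% lay above in this way and 22.5% below. At an unadjusted p under 0.05, 5.43% of all measured probe sets were higher and 6.58% lower. With space flight array 2 left out, though not with array 1, some of the genes passed. So did many other probe sets, the spread then coming from the ground control pair alone.

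None of the inhibitors' direct partners passed the test. Cdk4, which Ink4 proteins bind, stood at 0.31 ± 0.29 (SE; limma adjusted p = 0.704), and at 0.015 and 0.18 on its other measured probe sets. Cdk6, its close relative, stood at 0.16 ± 0.24 (adjusted p = 0.836), at −0.081 with each array shifted to 1 median, and at −1.25 on another measured probe set. Cdk2, the main target of Cip/Kip proteins, stood at −0.013 ± 0.38 (adjusted p = 0.993), and at 0.011 with intensities as deposited. The cyclins that pair with Cdk4 and Cdk6 were at 0.24 ± 0.40 for Ccnd1, 0.60 ± 0.48 for Ccnd2 and 0.53 ± 0.39 for Ccnd3 (SE; adjusted p = 0.852, 0.660 and 0.628). Other measured probe sets of Ccnd2 gave 1.77, 0.57 and 1.04, and that of Ccnd3 gave −0.24.

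The cyclins that pair with Cdk2 stood higher in flight without passing the test. Ccne1 and Ccne2, the E-type cyclins of S phase entry, had differences of 0.63 ± 0.38 and 1.12 ± 0.39 (SE; limma adjusted p = 0.545 and 0.307), and the S phase cyclin Ccna2 had 0.64 ± 0.40 (adjusted p = 0.562). Other measured probe sets gave 0.48 for Ccne1 and 0.41 for Ccna2. The phosphatase gene Cdc25a, which activates Cdk2, stood at −0.79 ± 0.34 (adjusted p = 0.406), but its other measured probe set gave 0.45. Further down the pathway, Rb1 stood at −0.19 ± 0.25 (adjusted p = 0.803) and E2f1 at 0.32 ± 0.32 (adjusted p = 0.736), with 1.00 on another measured probe set of E2f1.

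Cdkn1a belongs with the p53 targets, of which a list of 20 held 17 measured genes. Of them 0 passed the test (limma), with 4 higher and 0 lower at an unadjusted p under 0.05, and the median difference was 0.45. Of the 17, 12 stood above 0 and 5 below, where 51.2% of all measured genes stood above 0. Without overlap, 7 were higher and 1 was lower. The shares of all measured probe sets were 5.43% and 6.58% at that p, and 20.7% and 22.5% without overlap. With either space flight array left out some genes of the list passed, as did many other probe sets. Among the 4 higher at an unadjusted p under 0.05 with all arrays were the cell death genes Bbc3 and Pmaip1. These stood at 2.39 ± 0.38 and 1.89 ± 0.55 (SE, limma adjusted p = 0.0783 and 0.235). The others of the 4 were the growth arrest gene Btg2 at 1.60 ± 0.37 and the Akt inhibitor Phlda3 at 1.59 ± 0.38 (adjusted p = 0.169 and 0.186). The groups did not overlap for these 4 genes, which choice by smallest p favours. Another measured probe set of Btg2 gave 1.13. Mdm2, the ligase that removes p53 and is itself a p53 target, stood at 0.32 ± 0.34 (adjusted p = 0.762) and 0.34 on another measured probe set, and its brightest probe set's space flight values of 12.23 and 11.11 enclosed the ground control values of 11.41 and 11.30. The list was drawn up with results of these arrays known, so it is not independent evidence for Cdkn1a.

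A list of genes that control the inhibitors' transcription or turnover, which also held Stmn1, stood above 0 in 24 cases and below 0 in 8. Of all measured genes, 51.2% stood above 0. Of 34 listed, 32 were measured and 0 passed the test (limma), with 3 higher and 2 lower at an unadjusted p under 0.05. Of all measured probe sets, 5.43% were higher and 6.58% lower at that p. The median difference of the list was 0.17. Some genes of this list passed with either space flight array left out, as did many other probe sets. The stathmin gene Stmn1, whose protein is a partner of the Cdkn1b product, was 1 of the 3 higher, at 1.64 ± 0.34 (SE, limma adjusted p = 0.146). The myeloid factor gene Cebpb stood at 1.12 ± 0.21 (adjusted p = 0.126), with 1.54 on another measured probe set. Tgfbr2, a receptor for transforming growth factor beta, stood at −0.84 ± 0.22 (adjusted p = 0.199), and Cul1, the scaffold of the Skp2 ligase, at −0.80 ± 0.29 (adjusted p = 0.315). Skp2 itself stood at 0.59 ± 0.50 (adjusted p = 0.679) on its brightest probe set and at −0.05, −0.83, 0.05 and 0.31 on its other measured ones.

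Genes of S phase and mitosis stood mostly above 0, namely 17 of the 23 with a probe set and 13 of the 16 measured. Of all genes with a probe set 52.5% stood above 0, and of all measured genes 51.2%. Of 24 listed, 16 were measured and 0 passed the test (limma), with 5 higher and 0 lower at an unadjusted p under 0.05. Without overlap, 7 were higher and 1 was lower. The shares of all measured probe sets were 5.43% and 6.58% at that p, and 20.7% and 22.5% without overlap. The median difference was 0.71 over the measured genes, of which 2 had a ground control mean below the dim limit, and 0.49 over all 23 with a probe set. Here too some genes passed with either space flight array left out, as did many other probe sets. The helicase genes Mcm7 and Mcm4 stood at 1.45 ± 0.38 and 1.09 ± 0.30 (SE; adjusted p = 0.199 and 0.212), the nucleotide reductase gene Rrm2 at 1.52 ± 0.44 (adjusted p = 0.237) and Cdc20, an activator of mitotic exit, at 1.29 ± 0.37 (adjusted p = 0.235). Other measured probe sets gave 1.48, 1.54 and 1.57 for Mcm7, 0.01 for Mcm4 and −0.47 for Cdc20.

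**Figure D3:**
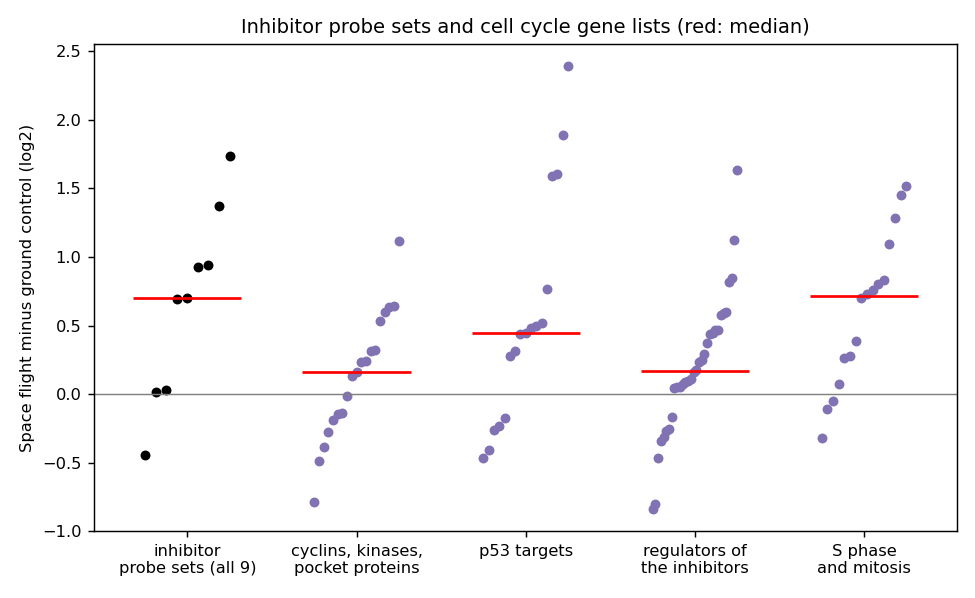
Space flight minus ground control on the log2 scale for all 9 inhibitor probe sets (black) and for the measured genes of 4 cell cycle lists (purple, 1 probe set per gene), with red lines for medians. The medians are 0.70 for the inhibitors, 0.16 for cyclins, kinases and pocket proteins, 0.45 for p53 targets, 0.17 for regulators of the inhibitors and 0.71 for S phase and mitosis.

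Of the markers of 9 cell types, 0 passed the test (limma), and those of neutrophils and erythroid cells stood mostly higher in flight. Of 15 neutrophil markers 13 were measured, and 11 of these were higher and 1 lower at an unadjusted p under 0.05. Of all measured probe sets, 5.43% were higher and 6.58% lower at that p. The summed deposited intensity of the 13 was 80339 and 146005 in space flight and 46763 and 51949 in ground control. Such sums are not normalized between arrays and weigh bright genes most. On space flight array 2, S100a8 gave 64764 and S100a9 gave 30454 of the sum. S100a8 and S100a9, the 2 brightest, stood at 0.79 ± 0.13 and 1.36 ± 0.28 (SE; limma adjusted p = 0.0847 and 0.147). Of 12 erythroid markers 8 were measured, with 5 higher and 0 lower at that unadjusted p. Sums over the 8 were 6624 and 13299 in flight and 1684 and 3494 on the ground. Among the 5 higher was Ermap, which averaged 5.73 in ground control, under the dim limit, and 7.63 in space flight. The brightest were Slc4a1 at 2.17 ± 0.44 and Alas2 at 1.23 ± 0.40 (SE; limma adjusted p = 0.145 and 0.270). Another measured probe set of Slc4a1 gave 0.88. The 10 measured macrophage markers had 0 higher and 5 lower, with sums of 102259 and 142385 against 116635 and 126816. Among them Csf1r stood at −0.37 ± 0.12 and Lyz2 at −0.061 ± 0.11 (SE; limma adjusted p = 0.265 and 0.871). On its other measured probe sets Csf1r stood further below 0. The sign of Lyz2 turned to 0.23 with intensities as deposited, 0.025 with a shift to 1 median and 0.063 with cyclic loess. The part of these cell types in the inhibitor differences was not tested.

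Few markers of lymphoid, mast and dendritic cells were bright enough to be measured. They were 3 of 8 for B cells, 1 of 10 for T and NK cells, 1 of 7 for mast cells and basophils and 1 of 7 for dendritic cells, beside 4 of 7 for megakaryocytes and 6 of 8 for stromal cells. The 2 brightest of each list, measured or not, were Blnk and Ighm, Cd8a and Gzma, Mcpt8 and Hdc, Itgax and Zbtb46, Pf4 and Itga2b, and Pdgfra and Dcn. At an unadjusted p under 0.05, 2 megakaryocyte markers were higher and 1 stromal marker was lower, beside 5.43% and 6.58% of measured probe sets. Mcpt8, the 1 measured marker of the mast cell and basophil list, was higher too.

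The genes with the most similar values over the 4 arrays were sought for each member with a measured probe set, among 11135 other measured genes. Likeness was the root mean square distance of log2 values after each gene was centred on its mean. Nearest to Cdkn1a were Dazap1 (0.063), H3c4 (0.071) and Slc23a3 (0.082). Nearest to Cdkn1b were Zc2hc1b (0.041), Elp6 (0.054) and Cdca5 (0.059), and nearest to Cdkn1c were C920009B18Rik (0.018), Nucb2 (0.019) and Klhdc10 (0.019). Of the Ink4 genes, Cdkn2c was nearest to Zfp518a (0.013), Rnf10 (0.016) and Nip7 (0.017). Cdkn2d was nearest to Pkmyt1 (0.031), Zfp629 (0.071) and Mapk6 (0.087), and Cdkn2b was nearest to Ackr2 (0.034), Zfp787 (0.037) and Msr1 (0.045). With 4 arrays and this many genes, close neighbours are found for any pattern.

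**Figure D4:**
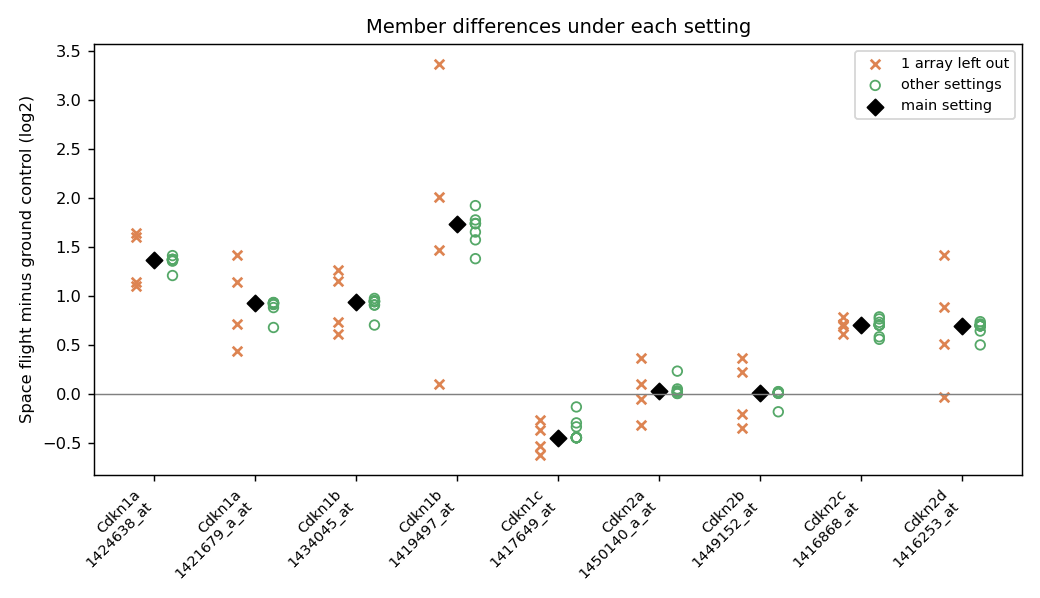
Space flight minus ground control on the log2 scale for each inhibitor probe set under the main setting (black), with 1 array left out (orange crosses) and under the other settings (green circles). The Cdkn1a, Cdkn2c and Cdkn1b 1434045_at values stay above 0 and those of Cdkn1c below 0 throughout, while leaving out 1 array moves Cdkn1b 1419497_at between 0.11 and 3.37.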

How the data were processed

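Expression was measured on 4 Affymetrix mouse whole-genome arrays after 2 rounds of amplification. The deposited values are linear intensity values, 1 for each probe set on each array, made with GCOS (version not stated), per the submitters' processing notes; the summarising algorithm is not given in the sources used here. The deposited intensity values had a 2% trimmed mean of 500.004 on each array. In R 4.3.3, log2(intensity + 16) of the 45037 probe sets that are not controls was quantile normalized. Symbols came from the platform annotation; probe sets with several symbols were left unnamed. The 22519 probe sets with a mean of at least 6.40 were tested with limma 3.58.1 (two-sided moderated test, eBayes with its variance trend over mean intensity, Benjamini-Hochberg over all 22519, threshold 0.05); all p-values are from this test, with 2 residual and 9.31 moderated degrees of freedom. The smallest two-sided p that an exact permutation test could reach with these arrays is 0.333. The procedure was tested on simulated data. The small number of arrays limits the precision. The members, lists and rules were chosen with earlier results of these data known. The named genes were all members, the 4 genes of smallest p in each cell cycle list, fixed direct partners, the 2 brightest markers of each cell type list and the 3 nearest genes of each member; Trp53 was not analysed here. Alternatives covered the pseudocount, array scaling, the dim filter, 1 probe set per gene, the variance trend, a replicate block and leaving out each array.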

Additional observations from a re-analysis of the deposited data

How the results depend on the processing

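The 11 called probe sets became 19 with a pseudocount of 64, 18 with cyclic loess, 6 with the limit reached on both arrays of a group, 7 with 1 probe set per gene and 334 with the replicate block, and 0 with each array shifted to 1 median, with no filter on dim probe sets or with no intensity trend. With 1 array left out the count ran from 1, without ground control replicate 1, to 2632, without space flight replicate 1; the spread then comes from the other group alone. Of the inhibitors 0 were called, except 1 with the replicate block, which was Cdkn1a 1424638_at at 1.37 (limma adjusted p = 0.00276), and 0 to 4 with 1 array left out. The block also called 3 of the p53 targets, 2 of the regulators and 2 of the S phase and mitosis genes (Mcm7 and Rrm2). The labels do not say what a replicate number shares, and the deviations of same-numbered arrays correlated at 0.066 over 22519 probe sets, so the block is no evidence of pairing.

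With 1 array left out, differences ran from 1.10 to 1.64 for Cdkn1a 1424638_at, 0.44 to 1.42 for 1421679_a_at, 0.62 to 1.27 for Cdkn1b 1434045_at, 0.11 to 3.37 for 1419497_at, −0.62 to −0.26 for Cdkn1c, −0.31 to 0.37 for Cdkn2a, −0.34 to 0.37 for Cdkn2b, 0.62 to 0.79 for Cdkn2c and −0.025 to 1.42 for Cdkn2d. They changed sign too for Ccnd3 (−0.0018 to 1.07), Cdk2 (−0.21 to 0.19), Cdk4 (−0.036 to 0.66), Mdm2 (−0.25 to 0.88) and Skp2 (−0.17 to 1.36). Signs also turned for Cdkn2b (−0.18) and Cdk6 (−0.081) with a shift to 1 median, for Cdk2 (0.011) with intensities as deposited, and for Lyz2 (0.23, 0.025 and 0.063) under 3 scalings. The cause was not tested.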
